A study of Mus musculus with 2 samples.

Results

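Cluster 1 is a group of goblet-like cells in mouse colonic epithelium, taken by its number in the table of cells that the authors deposited. It held 1361 of the 7863 cells of the series, with 606 of 4210 cells in the Mettl14 WT library (14.4%, exact 95% interval 13.3 to 15.5) and 755 of 3653 cells in the Mettl14 KO library (20.7%, 19.4 to 22). Single-cell 3' RNA profiles (10x Genomics V2) were made from live, EpCAM-sorted epithelial cells of C57BL/6 mice, 1 library per genotype. Mettl14 is a subunit of the complex that writes m6A on RNA. A time of 2 weeks is stated without a starting point, and the labels do not say which exons were deleted, which Cre line was used or how many animals went into a library. With 1 library on each side there is no replicate and no test. Every 95% interval below covers counting error alone, so a difference between the libraries can come from the animals or the preparation as well as from the genotype, and these cannot be told apart.

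Goblet cells fill apical granules with the gel mucin Muc2 and a set of small proteins, and release them as the mucus that keeps bacteria off the colonic surface. Muc2 is folded and joined into chains in the endoplasmic reticulum, then coated with O-linked sugars in the Golgi, so these cells carry a heavy secretory load. In the mouse colon goblet cells are also found near the crypt base, where some express secretory genes that others lack.

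In cluster 1 the library sums were 8649873 UMIs (molecule counts) in WT and 8562505 in KO, with medians of 11804.5 and 10329 UMIs per cell and median mitochondrial shares of 11.6% and 11.3%. Xist marked 30.0% of cells as female in WT and 43.2% in KO, and Y-linked genes marked 48.0% and 29.3% as male. The 2 libraries shared 2 cell barcodes, and both of these were cluster 1 cells in a library. Both Xist and a Y-linked gene were found in 10.7% of WT cells and 11.9% of KO cells, and no step to remove doublets was taken here; whether one was taken before deposit is not stated.

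The markers bear out the goblet-like label. The 16 goblet markers summed to 46378 CPM (UMIs per 1000000 UMIs of the cluster and library) in WT and 49552 CPM in KO, against 43257 and 41778 CPM in cluster 2 and at most 8187 CPM in any other cluster. In both libraries 8 of the 16 were at their highest of the 7 clusters in cluster 1. Markers shared with other epithelial states were present: stem markers summed to 1399 and 1562 CPM, the KO sum being the highest of the 7 KO clusters, colonocyte markers to 1503 and 1294 CPM, and cycling markers to 766 and 567 CPM. Of the 10 stem markers, only 1 was at its highest of the 7 clusters in cluster 1 in each library. The rarer types were low: enteroendocrine markers summed to 23.9 and 13.7 CPM, tuft markers to 7.75 and 17.2 CPM, and stromal and endothelial markers to 11.7 and 2.34 CPM. Gcg, Dclk1, Trpm5, Cd3g and Cdh5 were at 0 in both libraries. Immune markers summed to 51.4 CPM in WT and 124 CPM in KO.

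A few genes set cluster 1 apart from the rest of the epithelium, as a description of how the cells were grouped and not as a test. Mptx1, a mucosal pentraxin (chromosome 1, 174330518 to 174332873, GRCm38), was at 9541 CPM in WT cluster 1 and 1885 CPM in KO cluster 1, and at 25.1 to 487 CPM in the other 6 clusters. Reg4, a secreted lectin of the regenerating family (chromosome 3, 98222156 to 98236748), was at 2660 and 864 CPM, against at most 299 CPM elsewhere. Best2, a bestrophin anion channel of the basolateral membrane (chromosome 8, 85007202 to 85014531), stood at 297 and 292 CPM, and elsewhere at most at 66.4 CPM. So for Mptx1, Reg4 and Best2 both libraries lay above every other cluster of either library. Clca1, a secreted protein that processes the mucus gel (chromosome 3, 145003817 to 145032776), was at 1029 and 707 CPM, against at most 92.7 CPM elsewhere. Zg16, a lectin that binds Gram-positive bacteria (chromosome 7, 127050156 to 127087328), was at 1490 and 3781 CPM, against at most 136 CPM in the other WT clusters and 623 CPM in the other KO clusters. Clca1 and Zg16 therefore also led in cluster 1, but the rest of the KO epithelium held more Zg16 UMIs than the rest of the WT epithelium in 5 of the 6 other clusters, cluster 0 being the exception.

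Not all of these genes were found in most cells. At their full depth, 89.1% of WT and 86.1% of KO cells of cluster 1 held a Best2 UMI, against 1.18% and 4.41% in cluster 0, where median depth was 10941 and 7822.5 UMIs. With each cell thinned to 3000 UMIs, which left out 16 WT and 7 KO cells of cluster 1, the Best2 shares were 58.0% and 56.4%. Zg16 was in 38.4% of WT and 53.9% of KO cells, and in 23.2% and 39.7% after thinning, against 8.77% and 15.4% of cluster 0 cells before thinning. Zg16 was also the most uneven of the 5 genes: its 5 richest cells took 35.6% of the UMIs in WT and 19.1% in KO. Best2 was spread evenly, with 2.92% and 2.72% of its UMIs in the 5 richest cells.

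**Figure D1:**
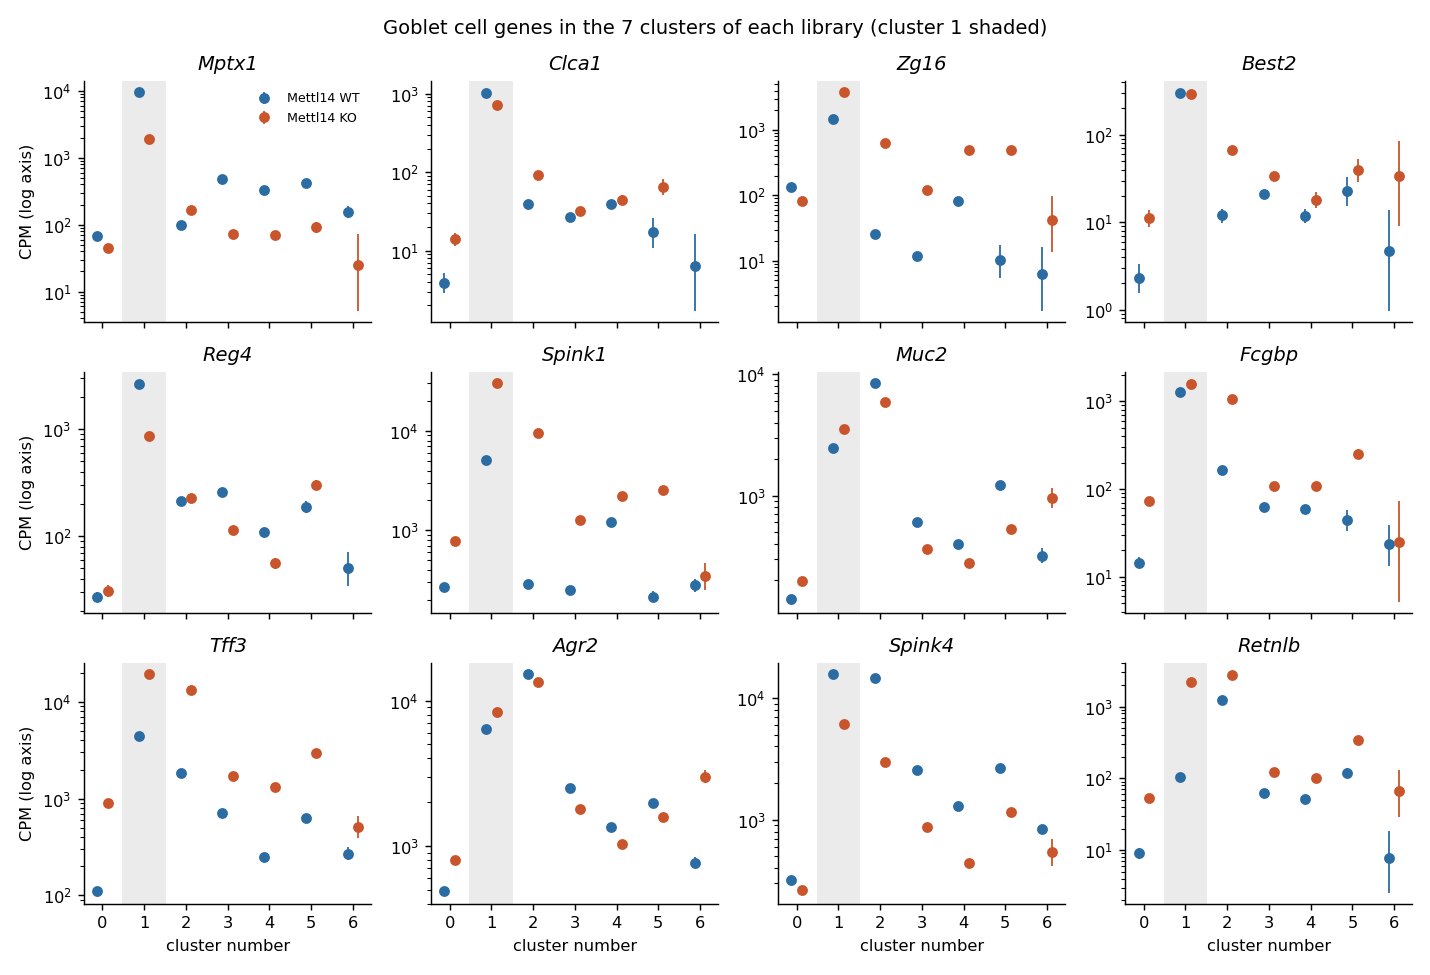
CPM on a log axis (vertical) of 12 goblet cell genes in clusters 0 to 6 (horizontal), Mettl14 WT in blue and Mettl14 KO in orange; bars are exact Poisson 95% intervals, cluster 1 is shaded, and levels of 0 are not drawn. Mptx1, Clca1, Best2 and Reg4 peak in cluster 1 in both libraries, while Muc2 and Agr2 are higher in cluster 2.

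The comparison with cluster 2 asks how the goblet-like cells of the 2 clusters differ. Over both libraries 269 of 11311 measured genes (2.38%) were at least 1.5-fold higher in cluster 1 with a counting interval off equality in each library, and 345 (3.05%) were lower. Cluster 1 held more Mptx1, Clca1, Zg16, Best2, Reg4 and Spink1, and less Muc2 and Agr2. The clusters were drawn from the same cells, so the values describe the clusters and support nothing further. The 2 clusters were further apart in the WT library, with 764 genes higher (6.75%) and 935 lower (8.27%), than in the KO library, with 478 higher (4.23%) and 650 lower (5.75%); total UMIs were lower in KO cluster 2, and the part of depth was not tested.

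Some of the genes that led cluster 1 over cluster 2 encode enzymes that act on sugar chains. Gal3st2, a galactose 3-O-sulfotransferase, was at 49.5 CPM in WT and 66.0 CPM in KO cluster 1 and at 1.10 and 8.97 CPM in cluster 2. Its neighbour Gal3st2b was at 58.6 and 69.5 CPM against 2.69 and 10.8 CPM, and Fut9, a fucosyltransferase, at 59.2 and 148 CPM against 12.5 and 20.6 CPM. In the re-clustering described below, 383 of the WT Fut9 UMIs lay in group 16 (112 CPM), and WT group 8 was at 21.5 CPM. For Fut9 the KO groups 3, 13 and 10 were at 171, 111 and 109 CPM. Gal3st2, Gal3st2b and Gal3st2c lie side by side on chromosome 1 and are close relatives, so reads could be split between them and their separate values are uncertain. Sval1, a secreted protein of the seminal vesicle antigen family, was at 6240 and 4456 CPM in cluster 1 against 712 and 833 CPM. Hoxd13, a transcription factor of the hindgut, was at 35.6 and 27.6 CPM against 1.60 and 4.84 CPM, and the small heat shock protein gene Hspb1 at 8.44 and 27.6 CPM against 0.599 and 4.30 CPM. Each of these 6 genes was lower in cluster 2 than in cluster 1 in both libraries.

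The reverse side was led by Plet1, a placenta-expressed surface protein, at 7.98 and 9.58 CPM in cluster 1 against 207 and 125 CPM in cluster 2. Car8, a carbonic anhydrase-related protein, was at 66.8 and 87.2 CPM against 340 and 433 CPM, and B3gnt6, which builds the core 3 O-glycan of Muc2, at 10.1 and 16 CPM against 98.9 and 63.3 CPM. Mt3, a metallothionein, was at 9.83 and 0.818 CPM against 125 and 7.17 CPM. Prnp, Kcnh3, Etv5, Cmah, Sct, Gng11, Osr2 and Hoxb7 were the other named genes on this side. Of 46 mucin glycosylation and sulfation genes measured here, 5 were higher and 7 lower in cluster 1 in both libraries, so genes of this list lay on both sides.

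The gel mucin itself was not a mark of cluster 1. Muc2 was at 2471 CPM in WT and 3506 CPM in KO cluster 1, below the 8410 and 5875 CPM of cluster 2. Agr2, the disulfide isomerase that Muc2 folding needs, was at 6387 and 8336 CPM against 15177 and 13427 CPM. Of 25 mucus gel and secreted goblet products measured here, 8 were higher and 4 lower in cluster 1 in both libraries. Of 18 deep crypt secretory genes 1 was higher and 5 were lower, and of 27 ion channels and transporters 7 were higher and 2 lower. Of 34 translocon genes none was higher and none lower in cluster 1 in both libraries. Of 29 endoplasmic reticulum chaperones 1 was higher and 1 lower. Over all measured genes 2.38% were higher and 3.05% lower, so these 2 counts do not set the lists apart.

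Cells of cluster 1 did not mix between the libraries when all cells were clustered anew from the counts, without correction between the libraries. Of the WT cells, 405 fell in re-clustered group 8 and 137 in group 16, together 89.4%. Of the KO cells, 430 fell in group 3, 219 in group 13 and 53 in group 10, and groups 3 and 13 together held 86.0%. Groups 3 and 13 took 0.660% of the WT cells, and groups 8 and 16 took 0.795% of the KO cells. Groups 3, 8, 13 and 16 are goblet-like by their markers. Group 10 was left unnamed: it scored highest for cycling markers, but its 10 leading genes include Pyy, Slpi, Retnlb, Tff3, Best2 and Fcgbp and no cycling marker. An immune-like group led by S100a9, S100a8 and C1qa took 14 WT and 28 KO cells. So nearly every KO to WT value below compares cells of groups 8 and 16 with cells of groups 3, 13 and 10. The split was not particular to cluster 1. Group 4 held 501 WT and 6 KO cells of cluster 2, and group 9 held 11 WT and 331 KO cells of it. Group 15, which scored as enteroendocrine, held 98 WT and 140 KO cells.

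The 2 large KO groups differed in mucus genes, as a description of groups made from these counts. In group 3 Zg16 was at 5632 CPM, Clca1 at 1015 CPM, Muc2 at 4772 CPM and Spink1 at 42408 CPM. In group 13 the same genes were at 89.8, 148, 591 and 4742 CPM. Best2 differed little between these groups, with 333 and 280 CPM, and Atoh1, the transcription factor of the secretory lineage, was at 291 and 339 CPM. In WT groups 8 and 16 Clca1 was at 976 and 971 CPM and Muc2 at 2080 and 1917 CPM, while Spink4 was at 21160 and 9617 CPM, Agr2 at 8161 and 4018 CPM and Reg4 at 3541 and 1934 CPM. For these last genes the KO groups 3 and 13 were nearer to each other, with Spink4 at 6863 and 5744 CPM, Agr2 at 9772 and 6509 CPM and Reg4 at 958 and 672 CPM. The WT groups also differed in depth and in Lgr5, a stem cell receptor, which was at 1.85 CPM in group 8 (median 10514 UMIs per cell) and 63.7 CPM in group 16 (median 21748 UMIs). Group 16 also took in 59 WT cells of cluster 3 and 34 of cluster 4, and whether it holds doublets was not tested.

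**Figure D2:**
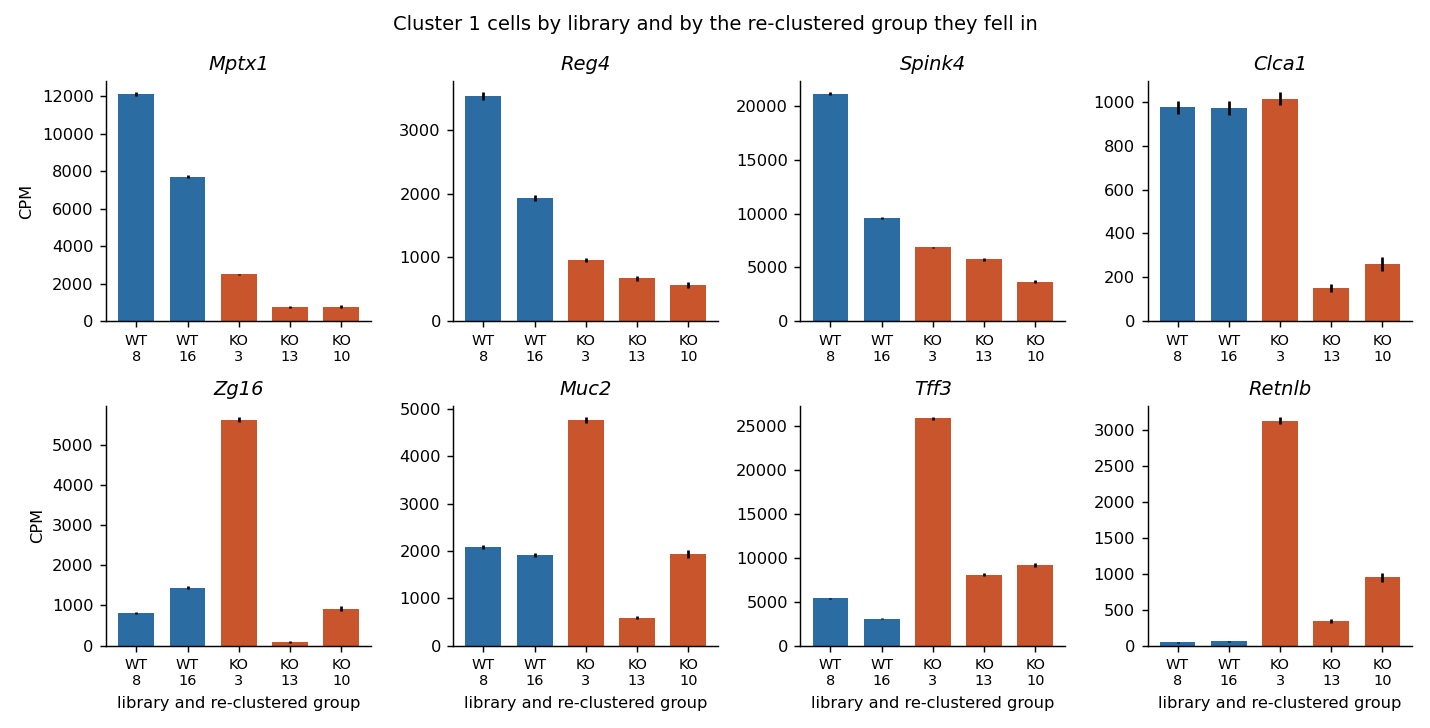
CPM (vertical) of 8 genes in cluster 1 cells, split by library and by re-clustered group (horizontal); WT groups 8 and 16 are blue, KO groups 3, 13 and 10 are orange, and bars carry exact Poisson 95% intervals. Zg16 reaches 5632 CPM in KO group 3 and 89.8 CPM in KO group 13, while Mptx1, Reg4 and Spink4 are lower in each KO group than in either WT group.

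Within the cells, thinned to 3000 UMIs, some pairs of secreted products went together in both libraries and others did not. Spearman's rho between Clca1 and Fcgbp, an IgG Fc-binding protein that builds the mucus scaffold, was 0.62 over 590 WT cells and 0.60 over 748 KO cells. Spink1 and Sval1 gave 0.60 and 0.79, and Muc2 and Spink1 0.49 and 0.77. Reg4 and Spink4, a secreted Kazal-type inhibitor, gave 0.48 and 0.54, whereas Reg4 and Clca1 gave −0.04 and −0.13. These are descriptions over cells that share a library and a preparation.

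The comparison of the libraries within cluster 1 asks what differs between Mettl14 KO and WT cells of this kind. The targeted gene had 73 UMIs in WT and 37 in KO, or 8.44 CPM (6.62 to 10.6) and 4.32 CPM (3.04 to 5.96), a log2 ratio of KO over WT of −0.97 (−1.58 to −0.38). Mettl14 was thus lower and not absent, and since 3' tags can be read from a transcript that lacks an inner exon, its count does not by itself check the deletion. Mettl3, the catalytic partner, fell from 11.3 to 5.37 CPM, a ratio of −1.08 (−1.61 to −0.56). Of 24 measured m6A writers, readers and erasers 3 were higher and 5 lower, near the shares over all measured genes (13.1% higher and 16.8% lower). The readers Ythdf2 (58.0 and 133 CPM) and Ythdf1 (35.0 and 61.9 CPM) were among the higher ones.

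A gene was counted as higher or lower where its ratio was at least 1.5-fold and its interval excluded equality. Of 10329 genes with at least 50 UMIs in cluster 1, 1352 were higher in KO (13.1%) and 1731 lower (16.8%), and the median ratio was −0.12. Higher genes made up 43.9% of the calls, and 58.2% once ratios were centred on the median gene, which shifts every ratio up by 0.12. Counts of list members below are read against the 13.1% and 16.8%.

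**Figure D3:**
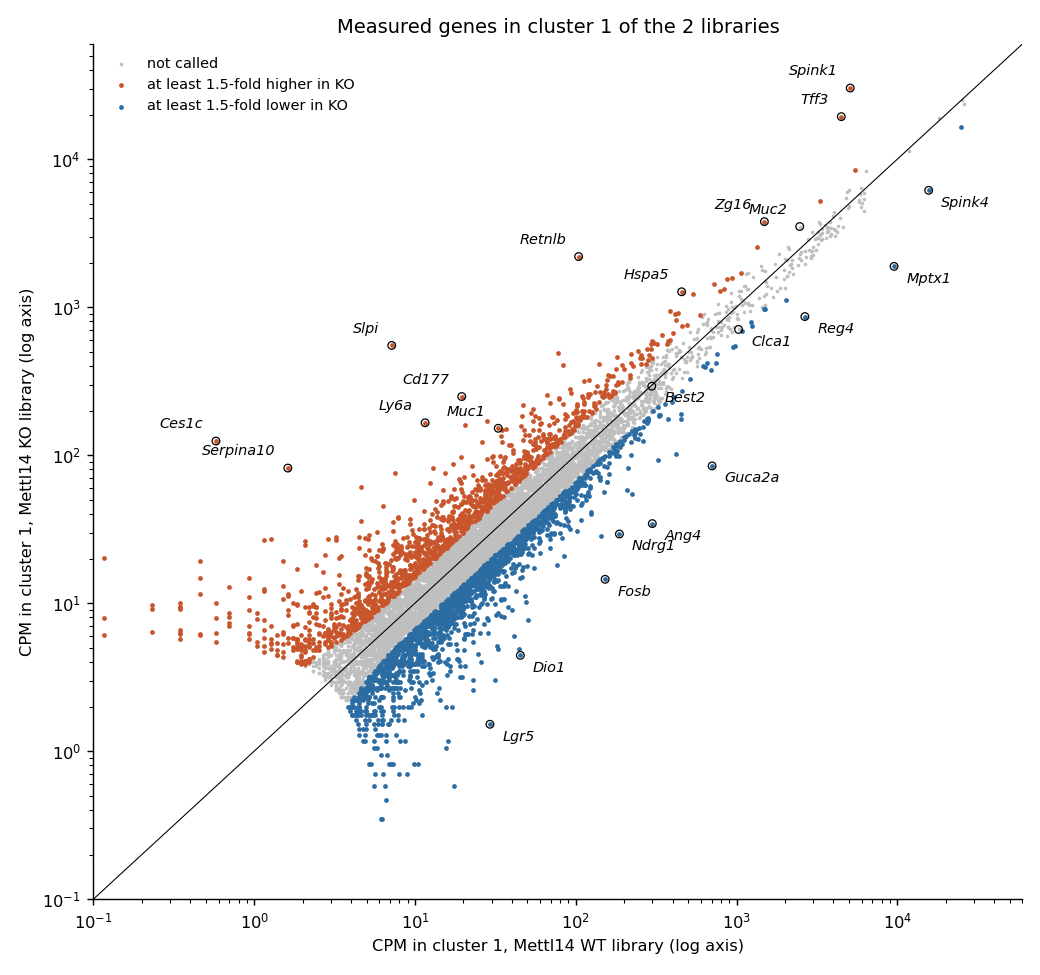
CPM in cluster 1 of the KO library (vertical, log axis) against CPM in cluster 1 of the WT library (horizontal, log axis) for measured genes; orange points were called higher and blue points lower in KO, the line marks equal levels, and the 10 genes with 0 UMIs in a library are not drawn. Tff3 and Spink1 lie above the line at high levels, Mptx1, Reg4 and Spink4 below it, and Best2 on it.

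The mucus and secreted products differed one by one and little in their sum. The 24 measured genes of the list took 5.93% of the UMIs in WT and 5.94% in KO, while 8 of them were higher, 10 lower and 6 neither. Tff3, the trefoil peptide of goblet cells, went from 4482 to 19372 CPM, a ratio of 2.11 (2.10 to 2.13). Retnlb, a bactericidal resistin-like protein, went from 104 to 2197 CPM, a ratio of 4.40 (4.30 to 4.50). Zg16 went from 1490 to 3781 CPM, a ratio of 1.34 (1.31 to 1.37). Its rise lay in KO group 3 (5632 CPM), with 89.8 CPM in group 13 and 923 CPM in group 10. WT groups 8 and 16 were at 802 and 1444 CPM. Tff3 and Retnlb were higher in KO groups 3, 13 and 10 than in either WT group. Tff3, Retnlb and Zg16 were also all higher in KO cluster 2.

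The products that were lower include the leading WT gene of cluster 1. Mptx1 went from 9541 to 1885 CPM, a ratio of −2.34 (−2.36 to −2.31), and 91.6% of WT and 75.2% of KO cells held a UMI of it. Reg4 went from 2660 to 864 CPM, a ratio of −1.62 (−1.66 to −1.59). Spink4 went from 15670 to 6156 CPM, a ratio of −1.35 (−1.36 to −1.33). These were lower in both re-clustered KO groups than in either WT group. Ang4, an antimicrobial ribonuclease, fell from 299 to 34.5 CPM, though 5 cells took 21.8% of its UMIs in WT and 40.0% in KO. Guca2a, the hormone guanylin, fell from 705 to 84.6 CPM and its relative Guca2b from 223 to 54.5 CPM.

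Some core goblet genes did not reach 1.5-fold. Muc2 was at 2471 and 3506 CPM, a ratio of 0.50 (0.48 to 0.53), and Fcgbp at 1275 and 1587 CPM, a ratio of 0.32 (0.28 to 0.35). Clca1 was at 1029 and 707 CPM, a ratio of −0.54 (−0.59 to −0.49). In KO group 3 Clca1 was at 1015 CPM, near the 976 and 971 CPM of WT groups 8 and 16. It was at 148 CPM in KO group 13 and 259 CPM in group 10. Muc2 and Fcgbp were above both WT groups in KO group 3 and below both in KO group 13. Best2 was at 297 and 292 CPM, a ratio of −0.02 (−0.10 to 0.06), so a difference of over 1.5-fold lies outside its counting interval. The lineage factors Atoh1 (244 and 289 CPM) and Spdef (102 and 79.9 CPM) were also neither higher nor lower by the rule.

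Outside the mucus list, Spink1, a serine protease inhibitor, stood out by its level in KO cluster 1. It went from 5091 to 30231 CPM, or from 0.509% to 3.02% of all UMIs, a ratio of 2.57 (2.56 to 2.58). Spink1 was at 42408 CPM in KO group 3 and 15223 CPM in group 10, but at 4742 CPM in group 13. WT groups 8 and 16 were at 5210 and 4636 CPM. Slpi, a secreted inhibitor of leukocyte proteases, was found with 62 UMIs in WT and 4720 in KO, or 7.17 and 551 CPM, a ratio of 6.26 (5.90 to 6.65), though the 5 richest KO cells held 20.8% of its UMIs. Its ratio was 4.83 in male and 7.22 in female cells. Ces1c, a carboxylesterase, had 5 and 1066 UMIs and stood first among genes ranked by the interval bound nearest to 0, with a ratio of 7.75 (6.52 to 9.38). It was in 0.825% of WT and 52.6% of KO cells of cluster 1, so its UMIs were spread over many cells. Serpina10, another serine protease inhibitor gene, went from 1.62 to 81.8 CPM. The other leading genes were Gabrg3, Rab37, Ttyh1, Ly6a, Cd177, Ceacam10, Chpf and Rtp4, with ratios from 3.34 for Chpf to 7.46 for Gabrg3, whose 1 WT UMI leaves an interval of 4.96 to 12.77.

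Among the lowest genes, Lgr5 went from 253 to 13 UMIs, or 29.2 to 1.52 CPM, a ratio of −4.27 (−5.20 to −3.47). Of the WT UMIs 217 lay in re-clustered group 16, and 69.2% of the KO UMIs in 5 cells. With only cells of goblet-like groups kept the ratio was −6.63, and without cells over 10% mitochondrial UMIs it was −3.01. Dio1, a deiodinase, went from 45.2 to 4.44 CPM, and Rdx, the actin-membrane linker radixin, from 31.4 to 3.04 CPM. Ndrg1 went from 187 to 29.3 CPM. Ppic, the cyclophilin C gene, went from 22.9 to 2.57 CPM. Svs5 and Svs4, genes of seminal vesicle secretion, had 319 and 184 UMIs in WT and 0 in KO, which against a floor of 3 counts over the KO cluster is at least 105-fold and at least 60.7-fold lower. All of their WT UMIs lay in at most 5 cells, and 3 WT cells of cluster 1 fell in a re-clustered group led by Defb50, Svs4 and Svs5.

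Membrane mucins and the list of mucin glycosylation and sulfation genes leaned upward. Of 5 measured transmembrane mucins 2 were higher and 0 lower. Muc1 went from 32.9 to 152 CPM, a ratio of 2.20 (2.02 to 2.39), and Muc4 from 31.3 to 66.0 CPM, a ratio of 1.07 (0.86 to 1.29). Muc13, the most abundant of them, was at 569 and 680 CPM. Of 45 measured genes of mucin glycosylation and sulfation, 15 were higher and 4 lower, with a median of 0.25 against −0.12 for all genes and −0.09 for the same list in cluster 2.

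The enzymes named from this list act at different steps, and whether each of them acts on mucins was not tested. C1galt1, which builds the core 1 O-glycan, went from 244 to 502 CPM, a ratio of 1.04 (0.97 to 1.12). B3galt5, a galactosyltransferase, went from 56.1 to 129 CPM. Fut2, which adds the terminal α1,2-fucose of mucins, went from 101 to 213 CPM, a ratio of 1.07 (0.96 to 1.19). Chst4, a sulfotransferase, went from 76.5 to 173 CPM, and B4galnt1 from 17.3 to 87.7 CPM. The 5 named members, chosen for the size of their change, were all higher in KO.

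Folding genes of the endoplasmic reticulum were higher or within 1.5-fold. Of 29 measured chaperones and disulfide isomerases 6 were higher and 0 lower, with a median of 0.34, and their summed level was 6834 CPM in WT and 8926 CPM in KO. Hspa5, the chaperone BiP, went from 455 to 1270 CPM, a ratio of 1.48 (1.43 to 1.53). Manf went from 295 to 519 CPM, Pdia4 from 95.7 to 169 CPM, Dnajb9 from 32.7 to 61.7 CPM and Qsox1, a sulfhydryl oxidase, from 183 to 303 CPM. In cluster 2 the median of this list was −0.05, with 1 member higher and 3 lower. Of 19 measured genes for unfolded protein sensing, degradation and secretory transcription, 8 were higher, such as Hspa13 (27.2 and 63.3 CPM), Os9 (51.4 and 98.3 CPM) and Bhlha15 (5.09 and 12.6 CPM), and 3 were lower. The lower ones include the membrane-bound transcription factors Creb3l4, from 108 to 36.2 CPM, and Creb3l1, from 333 to 188 CPM.

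The promoters of the chaperone list are shown because the list leaned one way and its genes are known targets of the endoplasmic reticulum stress element. That element was searched as CCAAT and CCACG with 9 bases between them, on both strands, in the 250 bases before each RefSeq gene start (GRCm38.p6). It was present in 7 of the 25 measured list genes that have a promoter in the table, against 37 of 32851 promoters overall (0.113%). The 7 genes were Hspa5, Hsp90b1, Calr, Canx, Pdia6, Creld2 and Dnajc3. Of these 1, Hspa5, was among the 5 of the 25 called higher, and 6 were among the 20 that were not. Calr and Pdia6 were picked for printing after their values were seen, with ratios of 0.51 (0.46 to 0.56) and 0.45 (0.38 to 0.53), under 1.5-fold. Capitals mark the element. For Hspa5 (chr2:34772025-34772043, plus strand) the match alone is printed, 47 to 65 bases before the RefSeq start, since a GENCODE exon covers it. The other stretches, Calr at chr8:84846935-84847181 on the minus strand and Pdia6 at chr12:17266339-17266544 on the plus strand, are free of annotated exons and read along each gene's own strand.
Hspa5: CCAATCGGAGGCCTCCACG
Calr: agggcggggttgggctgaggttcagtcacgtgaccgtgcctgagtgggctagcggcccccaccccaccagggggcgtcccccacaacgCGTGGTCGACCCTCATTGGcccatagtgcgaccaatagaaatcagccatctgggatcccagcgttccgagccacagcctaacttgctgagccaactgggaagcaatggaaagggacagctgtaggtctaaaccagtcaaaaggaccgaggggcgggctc
Pdia6: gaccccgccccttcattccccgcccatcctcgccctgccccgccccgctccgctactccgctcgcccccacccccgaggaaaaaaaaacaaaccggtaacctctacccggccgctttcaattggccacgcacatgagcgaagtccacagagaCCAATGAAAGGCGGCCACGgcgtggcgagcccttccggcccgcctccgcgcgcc
A match is a match of letters only, and in Calr it reads on the opposite strand.

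Genes of the integrated stress response, the shared programme downstream of eIF2α phosphorylation, were more often higher than lower. Of 21 measured 9 were higher and 3 lower, with a median of 0.33. Asns, asparagine synthetase, went from 40.9 to 103 CPM, a ratio of 1.33 (1.15 to 1.51), Atf5 from 7.28 to 35.4 CPM and Mthfd2 from 12.7 to 39.8 CPM. Chac1 had 3 UMIs in WT and 86 in KO, a ratio of 4.86 with a counting interval of 3.26 to 7.16. Atf3, which is also an immediate early gene, fell from 15.5 to 1.99 CPM. Further along the secretory route, 3 of 34 translocon and N-glycosylation genes were higher (Srp9, Ssr2 and Ddost) and none lower. Of 39 transport genes 3 were higher and 6 lower, against 13.1% and 16.8% over all measured genes. The COPII genes among the transport genes went both ways, with Sar1a from 79.2 to 238 CPM and Sec31a from 141 to 71.6 CPM.

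Antimicrobial and acute phase genes had the highest median of the 31 lists, 1.13, with 11 of 18 measured members higher and 6 lower. The list shares Mptx1, Reg4, Zg16, Retnlb and Ang4 with the mucus list and also holds Slpi, and its summed level was lower in KO, 13006 against 16982 CPM. S100a8 and S100a9, the calprotectin genes of neutrophils, had 2 and 4 UMIs in WT and 55 and 98 in KO. The S100a8 ratio was 4.80, with a counting interval of 2.87 to 7.88. Of the KO UMIs, all for S100a8 and 94.9% for S100a9 lay in 5 cells, beside the immune marker sums of 51.4 and 124 CPM given above. Without cells holding at least 3 UMIs of other cell types' markers the S100a9 ratio was 1.02 (−1.59 to 4.42) in place of 4.63 (3.23 to 6.53). In male cells alone it was −0.15 (−6.03 to 4.11), an interval that includes equality. Without cells holding those marker UMIs the median of the list was 0.77, and in male cells alone 0.37. Those markers include S100a8, S100a9 and Lyz2, which are members of this list. Leaving out such cells therefore lowers these genes by construction, and the values of 1.02 and 0.77 are no independent check.

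Interferon response genes were higher in KO in 15 of 37 measured cases and lower in 1, with a median of 0.50 in cluster 1 and 0.90 in cluster 2. Rtp4, an interferon-induced transport protein, went from 2.08 to 24.6 CPM, a ratio of 3.57 (2.87 to 4.35). Isg15, a ubiquitin-like modifier, had 8 and 127 UMIs, a ratio of 4.0 (2.98 to 5.25), and Oasl2 10 and 104 UMIs, a ratio of 3.39 (2.46 to 4.50). Iigp1 had 0 UMIs in WT and 55 in KO, at least 18.5-fold higher against a floor of 3 counts, and 70.9% of its KO UMIs lay in 5 cells. Of 22 MHC class I and peptide loading genes 5 were higher and 1 lower, with H2-D1 from 276 to 525 CPM and Tapbp from 49.4 to 84.9 CPM. Of 5 measured MHC class II genes 1, H2-Ab1, was lower, from 9.13 to 5.84 CPM, with 53.2% of its WT UMIs in 5 cells.

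The interferon list was searched in the same way for TTTC repeated with 2 bases between, the core of the interferon-stimulated response element. It was present in 11 of the 28 measured list genes with a promoter, 6 of the 12 that were higher and 5 of the 16 that were not, against 978 of 32851 promoters (2.98%). Isg15, with 3 overlapping matches on the opposite strand, and Ifit1, with 2, are shown as examples with more than 1 copy. Ifit1bl1, Oas1a, Bst2 and Irgm1 also had 2 matches and are not printed, and among them Oas1a was not called, with a ratio of 0.22. Ifit1 was chosen after its values were seen, with 8 UMIs in WT and 77 in KO and a ratio of 3.28 (2.23 to 4.54). Capitals mark the repeats, 57 to 78 bases before the start of Isg15 (chr4:156200819-156201068, minus strand) and 76 to 104 before that of Ifit1 (chr19:34640744-34640870, plus strand).
Isg15: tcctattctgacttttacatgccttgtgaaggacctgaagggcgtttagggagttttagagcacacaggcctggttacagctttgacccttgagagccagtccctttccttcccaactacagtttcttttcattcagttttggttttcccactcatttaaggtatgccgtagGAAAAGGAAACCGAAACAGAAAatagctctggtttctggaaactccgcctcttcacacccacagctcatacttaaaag
Ifit1: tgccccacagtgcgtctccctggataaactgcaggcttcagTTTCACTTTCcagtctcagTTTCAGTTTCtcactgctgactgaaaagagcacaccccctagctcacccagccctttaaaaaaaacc

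More genes of the stem cell and cell cycle lists were lower than higher in KO. The 10 stem markers fixed for naming cells summed to 1399 CPM in WT and 1562 CPM in KO. All of them but Slc12a2, which is also on the ion transport list, are in the stem and Wnt list. That list summed to 1383 CPM in WT and 951 CPM in KO, so the 1562 CPM cannot be reached without Slc12a2. Among 25 measured stem and Wnt genes 1 was higher in KO, 15 were lower, and the median was −0.63. Smoc2 fell from 19.5 to 3.15 CPM, Tcf7 from 6.71 to 0.934 CPM and Hopx from 124 to 41.5 CPM, while Prom1 rose from 28.1 to 93.7 CPM. The S phase list had 35 measured genes, 18 lower and 1 higher, and a median of −0.71, with values such as Pcna from 59.9 to 30.5 CPM and Mcm6 from 43.2 to 21.6 CPM. Of 35 G2 and M phase genes 14 were lower and 0 higher, and their median was −0.57. This median depended on the setting: it was −0.34 after thinning and −0.21 with the mean of per-cell CPM. In female cells alone it was −0.07, where the median of all genes was −0.10. With only cells of goblet-like groups kept, which leaves out group 10, the medians of the 3 lists were −0.83, −1.02 and −1.47. This setting leaves out cells grouped as cycling by their markers, among them 53 KO cells of group 10 and 16 WT cells of group 7. Those markers share genes with the S phase and G2 and M phase lists, so −1.02 and −1.47 are no check of these lists. For Top2a, 24.0% of the WT and 18.3% of the KO UMIs lay in 5 cells. In cluster 2 the medians were −0.68, −0.81 and −0.19.

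Notch signalling decides between absorptive and secretory fates. Of 29 measured lineage transcription factors and Notch genes 7 were lower, 1 was higher and 21 were neither, against 16.8% lower among all genes. Among the lower ones, the ligand Dll1 fell from 40.0 to 15.9 CPM, a ratio of −1.33 (−1.63 to −1.04), the receptor Notch1 from 16.6 to 7.47 CPM, and the targets Hes1 from 70.3 to 29.8 CPM and Nrarp from 9.48 to 1.99 CPM. Immediate early and AP-1 genes, which respond within minutes to many signals and to tissue handling, had the lowest median of the 31 lists in cluster 1, −0.80, with 15 of 27 lower and 2 higher. Fosb fell from 152 to 14.5 CPM, Fos from 419 to 101 CPM and Nr4a1 from 41.0 to 5.96 CPM. The list was also low in clusters 0, 2, 3, 4 and 5, with medians from −1.06 to −0.79, as in cluster 1, and preparation and genotype cannot be told apart here.

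Death and damage genes changed in both directions, with more higher than lower among the p53 targets and NF-κB genes. Of 25 p53 targets 9 were higher and 4 lower, with Phlda3 from 3.24 to 28.1 CPM, Bax from 83.6 to 221 CPM and Cdkn1a from 68.6 to 159 CPM. Of 23 NF-κB genes 8 were higher and 2 lower, with Tnip3 from 34.7 to 148 CPM and Ccl20 from 3.24 to 26.9 CPM higher, and Il18 (18.2 and 4.79 CPM) and Ccl28 (24.9 and 9.46 CPM) lower. Of 38 TNF receptor, apoptosis and pyroptosis genes 6 were higher and 8 lower, near the shares over all measured genes (13.1% and 16.8%). The gasdermins Gsdmc4, Gsdmc2 and Gsdmc3 fell, from 44.0 to 4.91, 22.5 to 6.19 and 13.9 to 3.97 CPM, and as near copies of each other their separate values are uncertain. Of the 381 WT UMIs of Gsdmc4, 327 lay in re-clustered group 16 (96.0 CPM), and group 8 was at 5.77 CPM against 4.06 CPM in KO group 3.

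Ion transport, crypt and surface genes went both ways, as did all measured genes (13.1% higher and 16.8% lower). Of 24 ion channels and transporters 5 were higher and 4 lower, with the sodium channel subunit Scnn1b at 12.9 and 82.3 CPM and the potassium channel subunit Kcne3 at 48.8 and 100.1 CPM higher, and the water channel Aqp1 at 20.5 and 6.19 CPM lower. Of 17 deep crypt secretory genes, which include Reg4 and Spink4, 2 were higher and 8 lower, with the ligand gene Kitl at 34.2 and 10.5 CPM and Hbegf at 13.9 and 4.44 CPM. Areg, another EGF receptor ligand, was higher, at 1.04 and 8.53 CPM. Of 33 granule and exocytosis genes 7 were higher and 4 lower, and the higher ones include Duoxa2 (4.86 and 27.7 CPM) and Duox2 (17.1 and 41.5 CPM), which make hydrogen peroxide at the apical membrane. Of 14 surface and intercrypt goblet genes 5 were higher and 7 lower. Ceacam1, an adhesion molecule of that list, was at 388 and 942 CPM.

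Genes of the absorptive lineage, junctions and detoxification went both ways, as did all measured genes (13.1% higher and 16.8% lower). Of 21 colonocyte genes 5 were higher and 7 lower, with the protocadherin Cdhr5 of the brush border at 72.6 and 181 CPM and the butyrate transporter Slc5a8 at 36.2 and 13.7 CPM. Of 24 junction genes 2 were higher and 6 lower: Cldn3 (418 and 819 CPM) and Cldn4 (28.6 and 63.1 CPM) were higher, and the pore-forming Cldn2 (109 and 47.5 CPM) and Cldn15 (85.7 and 41.2 CPM) lower. Of 37 redox and xenobiotic genes 3 were higher and 9 lower, with Mgst1, a glutathione transferase, at 144 and 28.5 CPM and Nqo1 at 42.2 and 12.1 CPM. Of 3 metallothioneins Mt1 was higher, at 727 and 1425 CPM, and Mt3 lower. Of 16 cytosolic heat shock genes 2 were higher and 0 lower, and of 13 mitochondrially encoded genes 3 were higher and 2 lower.

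**Figure D4:**
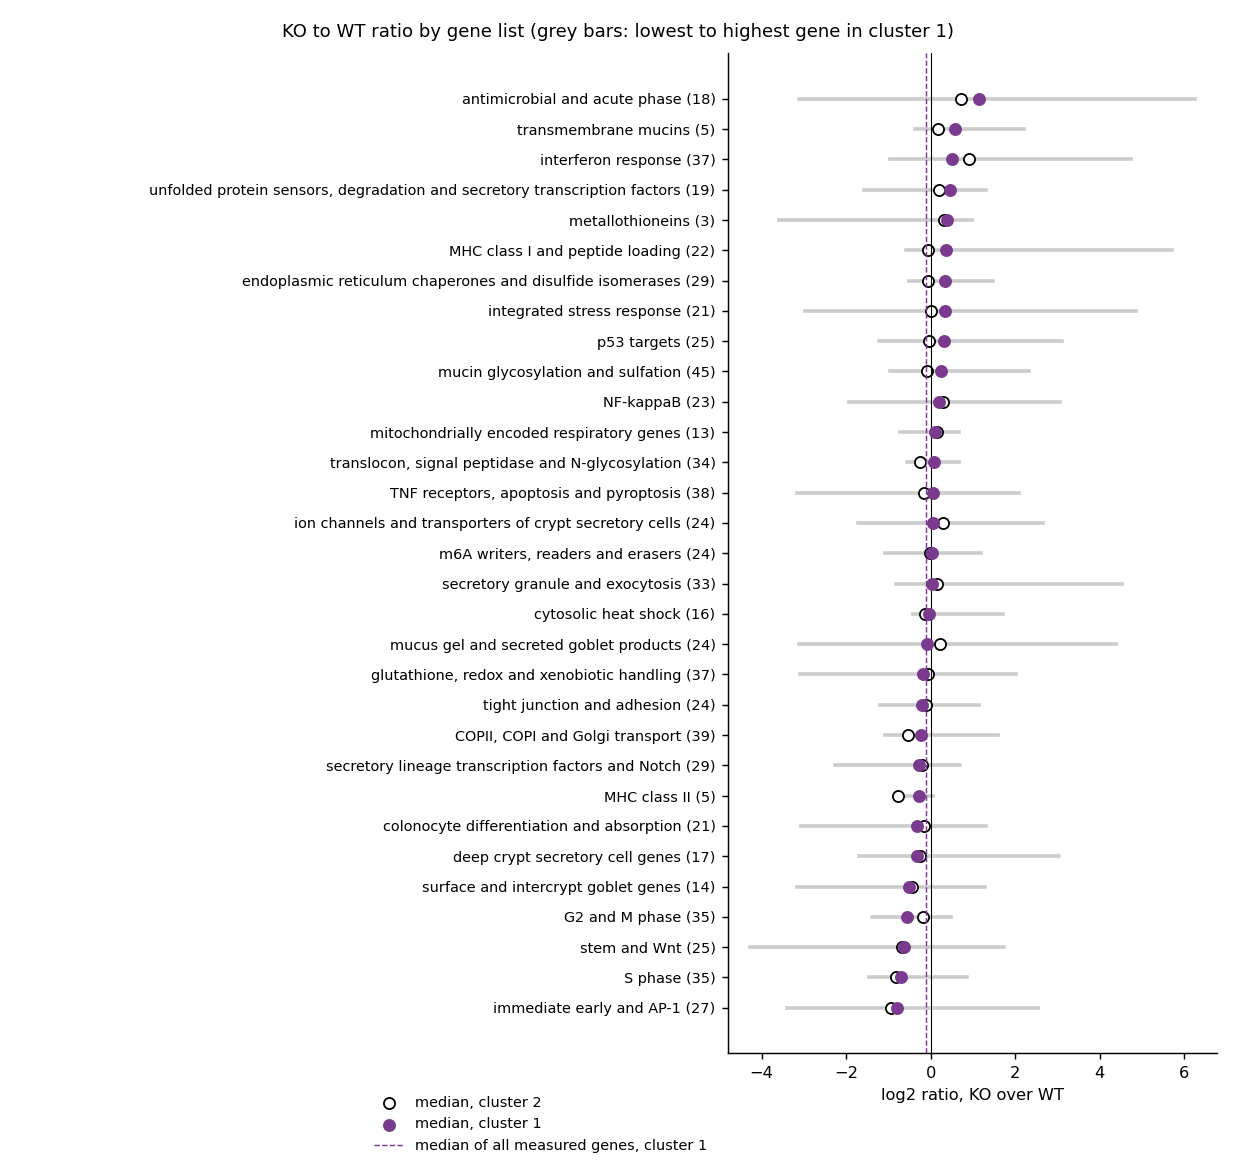
Log2 ratio of KO over WT (horizontal) for 31 gene lists (vertical, number of measured genes in brackets): filled points are medians in cluster 1, open points medians in cluster 2, and grey bars run from the lowest to the highest gene in cluster 1; the dashed line is the median of all measured genes, −0.12. Antimicrobial genes have the highest median in cluster 1, 1.13, and immediate early genes the lowest, −0.80.

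The ratios of cluster 1 were set against those of cluster 2, the other goblet-like cluster, to show where cluster 1 differed. Of 9933 genes with enough UMIs in both, 402 (4.05%) had a ratio at least 1.5-fold higher in cluster 1 and 443 (4.46%) one at least 1.5-fold lower, each with a counting interval off equality. In cluster 2 itself 14.4% of measured genes were higher in KO and 16.7% lower. Of 1903 genes called in both clusters, 928 were higher in both, 952 lower in both and 23 went opposite ways.

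Several genes that mark cluster 1 were higher in KO cells of cluster 2. Zg16 had a ratio of 4.62 in cluster 2, from 25.3 to 623 CPM, so the ratio of cluster 1 was lower by a log2 difference of −3.28 (−3.46 to −3.09). Best2 had a ratio of 2.47 in cluster 2, from 12 to 66.4 CPM, a difference of −2.49 (−2.80 to −2.19). Fcgbp had a ratio of 2.69 there, from 166 to 1074 CPM, and Clca1 one of 1.26, from 38.8 to 92.7 CPM. In the KO library the 2 clusters were thus closer in these genes, with log2 levels of cluster 1 over cluster 2 of 2.60 for Zg16 (5.88 in WT), 2.14 for Best2 (4.63 in WT) and 0.56 for Fcgbp (2.94 in WT). The re-clustering divided the cells of cluster 2 differently in the 2 libraries. In KO, 94 of the 520 cells of cluster 2 fell in re-clustered group 3, 57 in group 10 and 13 in group 13, beside the cells of cluster 1, whereas 3 of 704 WT cells of cluster 2 fell in group 8 and 0 in group 16.

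Mptx1 went opposite ways in the 2 clusters. It fell from 9541 to 1885 CPM in cluster 1 and rose from 97.9 to 164 CPM in cluster 2, where the ratio was 0.75, a difference of −3.09 (−3.22 to −2.96). Retnlb differed in the other direction, since WT cluster 2 already held 1218 CPM against 104 CPM in WT cluster 1, and the KO levels were 2788 and 2197 CPM. Its ratio was higher in cluster 1 by 3.20 (3.10 to 3.31). Meg3 and Mirg, noncoding RNAs of the same imprinted region, were higher in KO in cluster 1, with ratios of 1.65 and 2.47, and lower in cluster 2, with ratios of −1.16 and −0.78. Sycn, the granule protein syncollin, was at 327 and 347 CPM in cluster 1 and had a ratio of −1.61 in cluster 2.

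**Figure D5:**
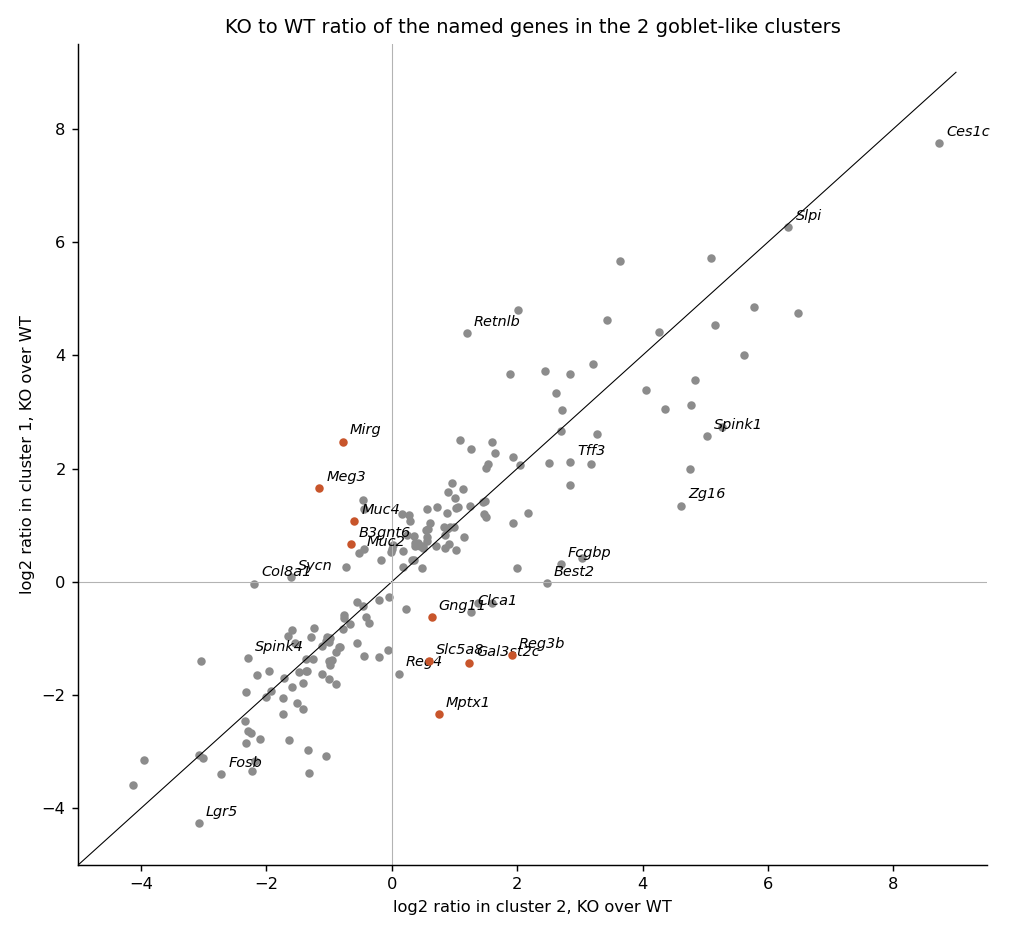
Log2 ratio of KO over WT of the named genes in cluster 1 (vertical) against cluster 2 (horizontal); the diagonal marks equal ratios, and orange points are the 9 genes called in opposite directions. Zg16, Best2, Fcgbp and Spink1 lie below the diagonal, Retnlb above it, and Mptx1 has a negative ratio in cluster 1 and a positive one in cluster 2.

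Since the libraries differed in their mix of female and male cells, the ratios were also taken within each sex. Of 7965 genes measured in both, 709 were higher in both sexes, 756 lower in both and 2 went opposite ways. Female cells gave Mptx1 a ratio of −2.48 (−2.52 to −2.44) and male cells one of −2.37 (−2.42 to −2.32), Reg4 −1.63 and −1.59, and Spink1 2.51 and 2.66. Zg16 was less even, at 1.76 (1.71 to 1.82) for female cells and 0.32 (0.26 to 0.38) for male ones, so the rule called it higher in female cells alone. Clca1 had a ratio of −0.85 (−0.93 to −0.78) in female cells, which passes the rule, and one of −0.03 (−0.10 to 0.05) in male cells. The number of animals behind each sex is not given, so a sex and an animal cannot be told apart.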

How the data were processed

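Single-cell 3' libraries of Mettl14 WT and Mettl14 KO colonic epithelium, 1 of each, were analysed from the raw UMI counts and the table of cells and 7 clusters that the authors deposited. Reads were handled with bcl2fastq and Cell Ranger on mm10, per the submitters' processing notes; versions, the cell filter and the clustering method are not given in the sources used here. No doublets were removed. The members and gene lists were chosen with earlier results of these data known. UMIs were summed per cluster and library and scaled to CPM, and a ratio carries an exact conditional binomial 95% interval. CPM carry exact Poisson and cell shares exact Clopper-Pearson intervals, all for counting error only, as are floors of 3 counts. Genes counted as measured had 50 or more UMIs in cluster 1. It was called when at least 1.5-fold apart with an interval off equality.

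Named genes were a fixed set of goblet genes, Mettl14 and Mettl3, the 12 leading genes with at least 20 CPM on each side of each comparison (6 for the difference of ratios), ranked by the interval bound nearest to 0, and up to 5 per list. Gene positions are from GENCODE on GRCm38, and promoter sequences from RefSeq on GRCm38.p6. A Leiden clustering (resolution 1, 2000 variable genes, 30 components, 15 neighbours), without correction between the libraries, gave the re-clustered groups. Cells with 3 or more Xist UMIs and none from Y-linked genes were scored female, and cells with UMIs from Y-linked genes but none of Xist male. Thinning drew 3000 UMIs per cell. The calling rule was tested on simulated data. Alternatives (14 planned, 1 chosen after seeing the data) changed the scaling, cells, depth and gene filter. Python 3.11.15, numpy 2.4.6, scipy 1.17.1, scanpy 1.11.5 and leidenalg 0.10.2 were used.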

Additional observations from a re-analysis of the deposited data

Results flagged for a closer look

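Among the named genes 9 were called in opposite directions in the 2 goblet-like clusters, and the difference was not tested, since there is 1 library per genotype. Of these, 4 were higher in KO in cluster 1 and lower in cluster 2, given as log2 ratios of KO over WT: Meg3 (1.65 and −1.16), Mirg (2.47 and −0.78), Muc4 (1.07 and −0.60) and B3gnt6 (0.67 and −0.64). The other 5 were lower in cluster 1 and higher in cluster 2: Mptx1 (−2.34 and 0.75), Gal3st2c (−1.43 and 1.23), Slc5a8 (−1.41 and 0.59), Reg3b (−1.29 and 1.91) and Gng11 (−0.62 and 0.63). For Reg3b in cluster 1, 5 cells took 76.8% of the UMIs in WT and 51.1% in KO, and its ratio in cluster 1 was 0.36 in female and −2.52 in male cells.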

How the results depend on the processing

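No paired analysis was possible because each genotype has 1 library. Of the named genes' ratios under the alternatives 1847 stayed within the main interval, 532 moved and 8 reversed, and of the list medians 275 stayed within 0.1, 124 moved and 4 reversed. Thinning reversed H2-Ab1 (1.16), Ect2 (0.34) and the medians of the surface goblet (0.0060) and MHC class II (0.3027) lists. The MHC class II median also reversed without the deepest 5% of cells (0.0423) and without cells with other types' markers (0.0122). Reg3b reversed in female cells (0.36) and without cells over 10% mitochondrial UMIs (0.43), and Nusap1 in female cells (0.18). In male cells S100a8 (−0.15), S100a9 (−0.15) and H2-Q7 (−0.37) reversed. Each of the 8 reversed gene ratios had a counting interval that included 0, so none is a clear change of sign. For S100a8 and S100a9 it ran from −6.03 to 4.11. Thinning left 891 genes higher and 919 lower in KO, and 157 higher and 228 lower in cluster 1 than in cluster 2, with 6928 genes measured. At least 200 UMIs per gene left 891 higher and 999 lower. Without cells over 10% mitochondrial UMIs 1123 were lower in KO, and 151 higher and 214 lower than in cluster 2. Female cells alone gave 175 and male cells 171 genes higher than in cluster 2. These settings test fewer genes or cells; other causes were not tested.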
